A study of Mus musculus with 15 samples.

Results

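The genes described here encode 10 proteins that are secreted onto mucosal surfaces or into inflamed tissue and that act on microbes or belong to the acute-phase response. They are the lysozymes *Lyz1* and *Lyz2*, the iron-handling proteins *Ltf* and *Lcn2*, the antiprotease *Slpi*, the serum amyloid *Saa3*, the cathelicidin *Camp*, the β-defensins *Defb1* and *Defb4*, and the C-type lectin *Reg3g*. They were chosen by symbol, each matched 1 row among 55487 genes listed, and 9 of the 10 reached the minimum of 10 counts in 5 libraries or more. *Camp* did not, and was not tested. Among all genes listed, 19006 reached it and were tested.

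RNA-Seq was performed on bulk conjunctiva from WT BALB/c mice (the strain is written BALC/c in the sample labels), in 3 groups of 5 libraries. The animals were females aged 9 to 12 weeks. Every group, controls included, had been sensitized through the skin with OVA on ears treated with MC903, a vitamin D analog that produces a dermatitis resembling atopic dermatitis, so none of the groups is naive tissue. The eyes were challenged daily from day 18 to day 24 with PBS and no stated antibody (PBS group), with OVA and an isotype control antibody (isotype group), or with OVA and an antibody to IL-4Rα, the receptor chain shared by IL-4 and IL-13 (anti–IL-4Rα group). Both antibodies were given at 25 mg/kg, so that isotype against PBS carried the OVA challenge together with the control antibody, whereas anti–IL-4Rα against isotype differed in the antibody alone.

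The ocular surface is protected by a film of tears in which lysozyme, lactoferrin, lipocalin and antiproteases are among the main proteins, made by the lacrimal gland, by the epithelium and, for part of them, by neutrophils and macrophages. A further set of proteins, among them the inducible β-defensins, REG3γ and serum amyloids, is made by epithelium or stroma in response to cytokines of the IL-17, IL-22, IL-6 and IL-1 families. Type 2 cytokines, which signal through IL-4Rα, are known to dampen several of these inducible genes in skin.

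Library totals ran from 48622246 to 87745024 estimated counts. Expression is given as CPM, a gene's counts per 1000000 counts of a library after TMM normalization, and fold changes are log2 differences from edgeR's quasi-likelihood test with adjustment over all 19006 genes. Markers of stratified epithelium were abundant, with a summed level of 8 genes from 8455 to 14947 CPM. The largest contributions were those of *Krt5* and *Krt14*, with means of 5660 and 3181 CPM in the PBS group, while *Krt4* and *Krt13* were at 982.5 and 957.8 CPM. The sum is not specific to conjunctiva. The goblet cell marker *Muc5ac* had 42088 to 146509 counts per library, while *Tff3* was at 0 counts in all 15. Expression of the tear protein gene *Obp1a* varied widely. It was under 1000 CPM in 4 libraries (PBS replicates 1 and 3, isotype replicate 2 and anti–IL-4Rα replicate 3) and reached 65809 CPM in another. The counts of calls, the genes called, *Slpi*, the defensins and the lysozyme ratio are given with and without those libraries. In bulk tissue, fewer cells of a type and less RNA per cell cannot be told apart.

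Between genes, levels were compared as CPM per kilobase of exon. In the PBS group *Lyz2* was highest at 166.5 ± 7.04 CPM per kb (SD, n = 5), a level above that of 98.6% of the genes ranked. *Ltf* followed at 117.9 ± 25.2 and *Defb1* at 61.5 ± 10 CPM per kb, and the libraries of these 3 genes did not overlap. *Slpi*, *Reg3g*, *Lyz1* and *Lcn2* formed a middle group with means from 11.8 to 14.6 CPM per kb, and neighbors in that order overlapped. *Defb4* stood lower at 3.86 ± 0.924, *Saa3* at 0.418 ± 0.103 and *Camp* at 0.0388 ± 0.0396 CPM per kb, with no overlap between them. After OVA challenge with isotype antibody *Reg3g* moved to 45.6 ± 32.1 CPM per kb, where it overlapped with *Defb1* and *Slpi*, and *Saa3* to 2.88 ± 1.57, where it overlapped with *Defb4*. Under anti–IL-4Rα, *Lyz2* was at 274.1 ± 55.3 CPM per kb and clear of *Ltf*, whereas both genes overlapped in the isotype group.

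**Figure D1:**
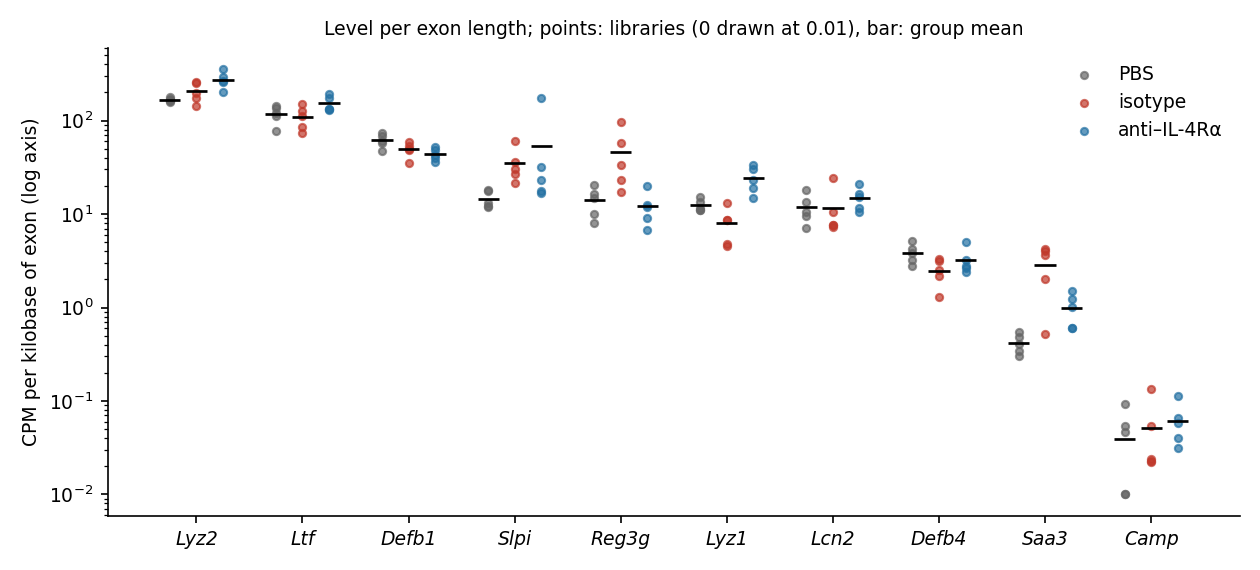
Levels of the 10 genes per exon length in every library, on a log axis of CPM per kilobase of exon, with genes ordered by their mean in the PBS group, points for libraries (0 drawn at 0.01) and a bar for the group mean. *Lyz2*, *Ltf* and *Defb1* lie above the rest in the PBS group, *Camp* lies lowest in all 3 groups, and *Saa3* spans the widest distance between groups.

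Of the 9 genes tested, 2 passed an adjusted p of 0.05 in isotype against PBS, *Saa3* and *Reg3g*, both higher in the isotype group. Over all genes tested in that comparison 17.0% were called (9.53% higher and 7.49% lower), so that a count of 2 in 9 is close to the background. In the same comparison all 6 skeletal muscle markers were called lower (median log2 fold change -0.72), at a summed level of 5671 to 9765 CPM in PBS libraries, 3389 to 5145 CPM in isotype libraries and 4492 to 6684 CPM in anti–IL-4Rα libraries, and the part of this shift in the results was not tested. In anti–IL-4Rα against isotype 3 passed, *Lyz1* higher and *Reg3g* and *Saa3* lower, beside 14.9% of all genes (6.73% higher and 8.13% lower). Anti–IL-4Rα against PBS gave 1 call, *Lyz2* higher, beside 3.72% of all genes (2.28% higher and 1.44% lower). Without the 4 libraries low in *Obp1a* the calls numbered 2 (*Saa3* and *Slpi*), 2 (*Lyz1* and *Reg3g*) and 0. The median absolute log2 fold change of the 9 genes was 0.64, 0.48 and 0.48 in these comparisons, against 0.158, 0.166 and 0.128 over all genes tested. Such medians also grow with the spread between libraries, and its part in them was not tested. These comparisons share libraries, the isotype or the PBS group entering 2 of them each, and are therefore not independent of each other.

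**Figure D2:**
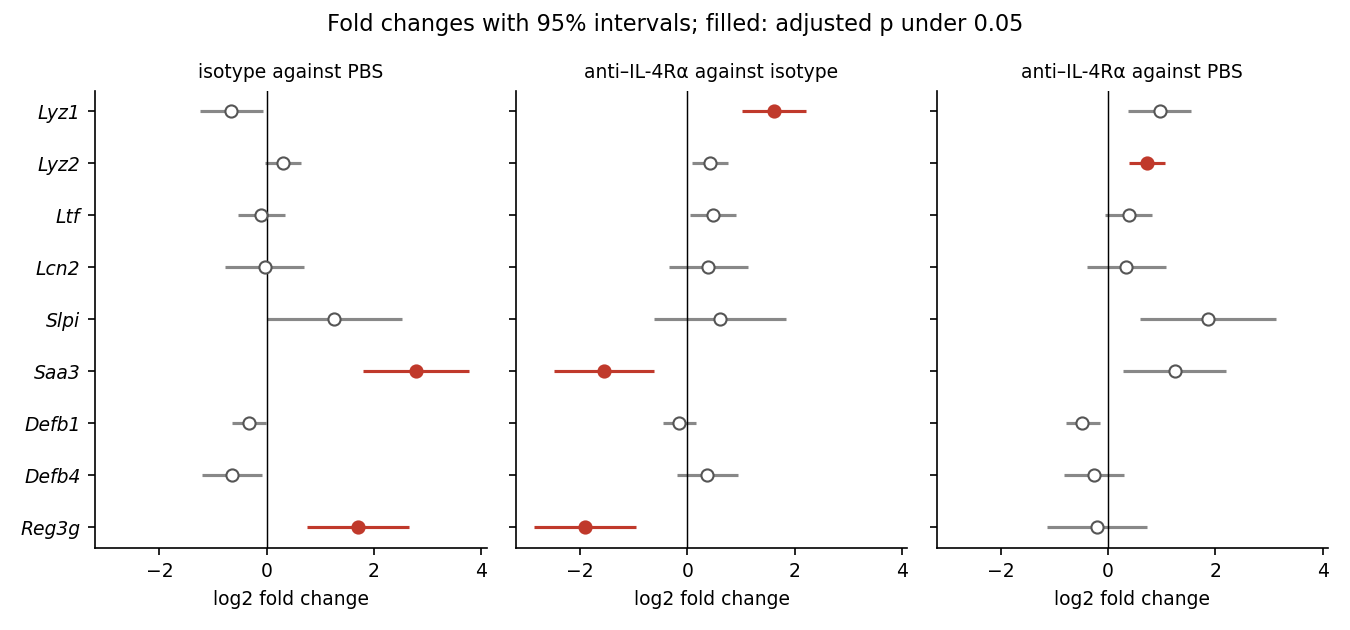
Log2 fold changes of the 9 genes tested with their 95% intervals in the 3 comparisons, filled where the adjusted p was under 0.05. *Saa3* and *Reg3g* lie to the right in isotype against PBS and to the left in anti–IL-4Rα against isotype, where *Lyz1* lies to the right, and *Lyz2* is the filled point in anti–IL-4Rα against PBS.

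*Lyz1* (ENSMUSG00000069515, chromosome 10, 117287797 to 117292868, minus strand of GRCm38) and *Lyz2* (ENSMUSG00000069516, chromosome 10, 117277331 to 117282321, minus strand) are neighboring copies of the gene for lysozyme, which cleaves the peptidoglycan of bacterial cell walls. *Lyz1* is known as the lysozyme of Paneth cells and *Lyz2* as that of macrophages and neutrophils. Their coding sequences are both 447 bases long and 95.1% identical, with 22 differing bases. The first 90 coding bases of each, from GENCODE M21 transcripts, are shown because so near a pair can exchange reads, with the 7 bases that differ in capitals.
Lyz1: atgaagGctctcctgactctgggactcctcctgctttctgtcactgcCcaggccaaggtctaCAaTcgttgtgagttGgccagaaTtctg
Lyz2: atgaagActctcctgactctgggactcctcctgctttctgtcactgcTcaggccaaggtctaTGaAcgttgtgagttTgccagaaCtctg
Of all windows of 90 bases in the transcripts, 3.75% of those of *Lyz1* and 3.59% of those of *Lyz2* were found in the other gene, and both genes had fractional counts in all 15 libraries. How the counting divided such reads is not given in the sources used here, and values of the pair are uncertain to that extent. *Lyz2* had 9297 to 32205 counts per library and *Lyz1* 361 to 2925, so shared reads weigh far more on *Lyz1*. The level of *Lyz1* and the ratio of the pair could depend largely on that division, which was not tested.

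In PBS replicates 1 to 5, *Lyz1* was at 17.0, 14.7, 13.9, 19.2 and 14 CPM. In the isotype group, the values were 10.9, 5.76, 6.07, 10.9 and 16.4 CPM. Anti–IL-4Rα libraries had 29.2, 38.6, 42.6, 19.0 and 23.8 CPM. Every anti–IL-4Rα library was thus above every isotype library, a separation that 7.31% of all genes tested also showed, while the isotype libraries were below the PBS libraries except for replicate 5, which lay within the PBS range. From isotype to anti–IL-4Rα *Lyz1* rose 3.06-fold, a log2 fold change of 1.62 (SE 0.28, 95% interval 1.01 to 2.22, adjusted p = 0.00534). Between isotype and PBS the log2 fold change was -0.66 (SE 0.28, 95% interval -1.25 to -0.06), which did not pass (adjusted p = 0.117), and between anti–IL-4Rα and PBS it was 0.96 (SE 0.28, 95% interval 0.37 to 1.55, adjusted p = 0.0654).

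The rise of *Lyz1* under anti–IL-4Rα was called in all 14 alternative settings (adjusted p from 6.72e-07 to 0.0338) and in all 15 fits that left out a library. Lacrimal acinar genes were measured beside it. The summed level of 10 of them (9 tested, 2 called higher, *Cckar* at 0 in 5 libraries) was higher under anti–IL-4Rα at the median. It was 329.4 to 3114 CPM (median 2218) in the anti–IL-4Rα group and 269.7 to 838.0 CPM (median 506.3) in the isotype group, with overlapping ranges. The called genes were *Amy1* and *Aqp5*. Anti–IL-4Rα replicate 3, the library of that group with the least *Obp1a* (455 CPM), had the highest *Lyz1* level of all 15. It also had the highest *Lyz2* and *Slpi* levels, and what set this library apart was not tested. With the lacrimal acinar score as a covariate the difference on the log2 scale was 1.65 (SE 0.31, adjusted p = 0.0254), and without the 4 libraries under 1000 CPM of *Obp1a* it was 1.31 (SE 0.29, adjusted p = 0.0168). That score, the centered mean log2 CPM of the 9 acinar genes tested, was 1.437 to 1.674 in anti–IL-4Rα replicates 1, 2, 4 and 5. In all other libraries it was at most 0.8866, so fits with this covariate cannot fully separate lacrimal gene levels from the antibody.

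*Lyz2* was at 232.8, 207.6, 215.2, 221.7 and 218.4 CPM in the PBS group, the narrowest spread of the 10 genes relative to the mean. Isotype libraries had 189.9, 232.0, 341.0, 257.1 and 331.6 CPM. Under anti–IL-4Rα the values were 345.0, 380.8, 469.1, 269.3 and 339.5 CPM. All anti–IL-4Rα libraries lay above all PBS libraries, and the isotype libraries spread from below the PBS range into that of anti–IL-4Rα. *Lyz2* rose 1.65-fold from PBS to anti–IL-4Rα, a log2 fold change of 0.72 (SE 0.16, 95% interval 0.38 to 1.06, adjusted p = 0.0318). Its log2 fold change was 0.30 (SE 0.16, 95% interval -0.03 to 0.64, adjusted p = 0.198) in isotype against PBS and 0.42 (SE 0.16, 95% interval 0.08 to 0.75, adjusted p = 0.0864) in anti–IL-4Rα against isotype.

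The call of *Lyz2* was near its threshold. It was lost without PBS replicate 1, 2, 3 or 4 and without anti–IL-4Rα replicate 1, 2 or 5 (adjusted p from 0.0604 to 0.0848), although the log2 fold change then stayed between 0.70 and 0.74. The adjusted p was 0.0788 without the 4 libraries low in *Obp1a* and 0.053 with the lacrimal covariate. Of 10 macrophage and monocyte markers, all tested, 7 were called higher in isotype against PBS, 2 lower in anti–IL-4Rα against isotype and 3 higher in anti–IL-4Rα against PBS. Summed, they ran from 794.4 to 889.4 CPM in PBS libraries, from 917.5 to 1492 CPM in isotype libraries and from 851.2 to 1096 CPM in anti–IL-4Rα libraries, and their part in the values of *Lyz2* was not tested.

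The ratio of both lysozymes within a library is free of library size, though not of how shared reads were divided. *Lyz1* made up 6.04 to 7.98% of the summed counts of the pair in the PBS group, 1.75 to 5.44% in the isotype group and 6.54 to 9.19% in the anti–IL-4Rα group. The log2 ratio of *Lyz1* to *Lyz2* counts (with 0.5 added to each) was -3.81 ± 0.18 in the PBS group, -4.83 ± 0.71 in the isotype group and -3.60 ± 0.23 in the anti–IL-4Rα group (SD, n = 5). Every isotype library lay below every library of the other groups. The isotype group was lower than PBS by a difference of -1.02 and anti–IL-4Rα was higher than isotype by 1.23, each with the smallest two-sided p that 5 libraries against 5 allow (exact permutation test, p = 0.00794, adjusted over 3 comparisons 0.0119). Anti–IL-4Rα and PBS differed by 0.21 (exact permutation test, p = 0.143) and overlapped. Leaving out single libraries kept the differences between -1.20 and -0.78 and between 0.99 and 1.41. Without the 4 libraries low in *Obp1a* the differences were -0.94 (exact permutation test, p = 0.0571) and 1.07 (exact permutation test, p = 0.0286), again with no overlap.

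**Figure D3:**
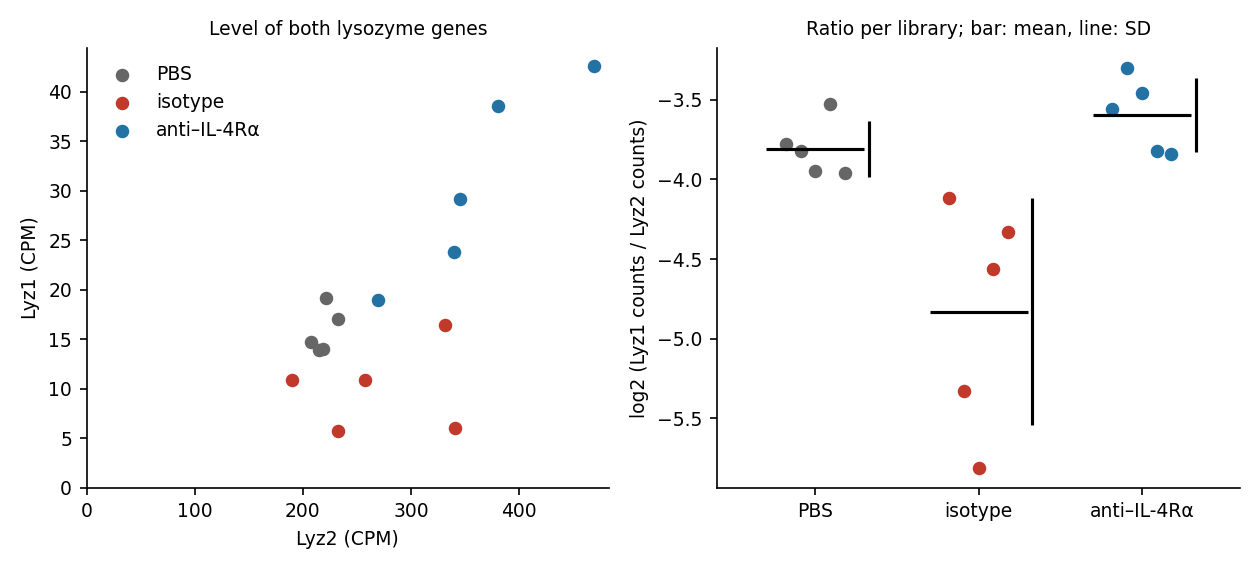
Left, *Lyz1* against *Lyz2* in CPM for each of the 15 libraries, and right, the log2 ratio of their counts per library, with a bar for the mean and a line for the SD. The 5 isotype libraries lie below the others in the ratio, from -5.81 to -4.12, while PBS and anti–IL-4Rα libraries lie between -3.96 and -3.30.

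*Ltf* (ENSMUSG00000032496, chromosome 9, 111019271 to 111042767, plus strand) encodes lactoferrin, an iron-binding protein of tears, milk and neutrophil granules, and *Lcn2* (ENSMUSG00000026822, chromosome 2, 32384633 to 32388252, minus strand) encodes lipocalin 2, which captures bacterial siderophores. *Ltf* ranged from 268.4 to 490.3 CPM in the PBS group, from 252.3 to 523.1 CPM in the isotype group and from 450.7 to 661.3 CPM in the anti–IL-4Rα group. For *Lcn2* the ranges were 18.6 to 47.7, 19.1 to 63.4 and 27.5 to 55.4 CPM. All groups overlapped for both genes, and neither was called in any comparison. Isotype against PBS gave log2 fold changes of -0.10 (95% interval -0.54 to 0.34) for *Ltf* and -0.04 (95% interval -0.78 to 0.69) for *Lcn2*, which leaves room for changes of up to the ends of those intervals.

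In anti–IL-4Rα against isotype the log2 fold change of *Ltf* was 0.48 (SE 0.20, adjusted p = 0.124) and that of *Lcn2* 0.39 (SE 0.35, adjusted p = 0.450). These values turned on isotype replicate 1, which had the highest *Ltf* and *Lcn2* of its group. Without it both passed, at 0.62 (adjusted p = 0.0445) and 0.86 (adjusted p = 0.0363). The pair varied together more than any other pair among the 9 genes, with a Pearson correlation of log2 CPM of 0.811 over 15 libraries (0.777 after centering within the groups). This is a description, since the points share libraries and groups. Of the receptors for these proteins, *Slc22a17*, which takes up lipocalin 2, rose from 28.4 ± 3.07 CPM in the isotype group to 35.7 ± 3.70 CPM under anti–IL-4Rα (log2 fold change 0.33, SE 0.08, adjusted p = 0.0226). *Lrp1*, which binds lactoferrin, was at 350.1 ± 33 CPM in the isotype group and 339.6 ± 31.8 CPM under anti–IL-4Rα, a log2 fold change of -0.04 (95% interval -0.21 to 0.12).

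*Slpi* (ENSMUSG00000017002, chromosome 2, 164354070 to 164389095, minus strand) encodes the secretory leukocyte protease inhibitor, which blocks neutrophil elastase and cathepsin G and is itself antimicrobial. Its annotated span also holds the microRNA gene *Mir7678* on the same strand. In the PBS group, *Slpi* was at 21.2, 14.6, 21.0, 15.4 and 14.2 CPM. The isotype group had 31.8, 25.2, 36.0, 42.4 and 72.1 CPM. In the anti–IL-4Rα group the values were 19.7, 27.5, 208.4, 21.0 and 37.3 CPM. All isotype libraries were above all PBS libraries, and anti–IL-4Rα replicate 3 stood alone at the top while the other libraries of its group ran from the upper PBS values into the isotype range.

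On average *Slpi* was at 17.3 ± 3.52 CPM with PBS and at 41.5 ± 18.2 CPM in isotype libraries (SD, n = 5), a log2 fold change of 1.26 (SE 0.59, 95% interval 0.01 to 2.52). It was not called over all genes (adjusted p = 0.151), although the libraries were fully separated (two-sided exact permutation test, p = 0.00794), a separation that 12.3% of all genes tested also showed. Without anti–IL-4Rα replicate 3, a library outside this comparison that enters the fit through the shared estimate of spread, the log2 fold change was again 1.26 and the adjusted p 0.00893. *Slpi* was also called when the 4 libraries low in *Obp1a*, which include that replicate, were left out (log2 fold change 1.64, adjusted p = 0.019). Anti–IL-4Rα against isotype changed sign with that library, from 0.60 (adjusted p = 0.482) with it to -0.65 (adjusted p = 0.111) without it.

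*Saa3* (ENSMUSG00000040026, chromosome 7, 46711998 to 46715700, minus strand) encodes a serum amyloid A, an acute-phase apolipoprotein that is made outside the liver. *Reg3g* (ENSMUSG00000030017, chromosome 6, 78466269 to 78468872, minus strand) encodes REG3γ, a lectin that kills Gram-positive bacteria at epithelial surfaces. They were the 2 genes called in both comparisons with the isotype group. The 250 bases upstream of their RefSeq starts are shown for that reason (GRCm38.p6, minus strand, chr7:46715677-46715926 and chr6:78468875-78469124), with the motif match that each holds in capitals.
Saa3: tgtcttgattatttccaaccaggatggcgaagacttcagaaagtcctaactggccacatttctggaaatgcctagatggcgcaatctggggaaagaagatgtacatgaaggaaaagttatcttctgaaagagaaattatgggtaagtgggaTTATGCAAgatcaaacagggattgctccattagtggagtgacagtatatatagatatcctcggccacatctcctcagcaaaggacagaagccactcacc
Reg3g: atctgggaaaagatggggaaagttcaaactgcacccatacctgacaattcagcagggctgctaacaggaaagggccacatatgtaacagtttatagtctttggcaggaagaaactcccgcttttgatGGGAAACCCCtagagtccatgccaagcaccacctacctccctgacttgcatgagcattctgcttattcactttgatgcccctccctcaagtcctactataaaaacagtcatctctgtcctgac
The capitals in *Saa3* match the C/EBP motif TTGCNNAA (on the other strand), whose first base lies at position -99 from the start, and those in *Reg3g* match the NF-kB motif, GGGA and CC with 4 bases of any kind between them, at position -123. Both strands were searched for these 2 motifs and for the STAT3 and STAT6 motifs, TTC and GAA with 3 or 4 bases between them, and 8 of the 10 genes had an upstream sequence in the RefSeq table. A C/EBP match was also present upstream of *Lyz1*, *Ltf*, *Lcn2* and *Slpi*, and *Lcn2* held a STAT6 match. Among 32851 upstream sequences of the same length, 17.6% held the NF-kB, 9.56% the C/EBP, 7.02% the STAT3 and 5.85% the STAT6 motif. The C/EBP motif was thus in a larger share of the 8 sequences than of all of them. Whether that difference exceeds chance, and whether any match is bound, was not tested.

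*Saa3* was at 0.893, 1.27, 1.06, 0.783 and 1.44 CPM in the PBS group, from 41 to 82 counts per library. Isotype libraries had 1.37, 10.4, 9.54, 5.33 and 10.9 CPM. Under anti–IL-4Rα *Saa3* was at 3.90, 1.58, 2.65, 3.19 and 1.56 CPM. Isotype replicate 1 lay within the PBS range and the other 4 isotype libraries lay above every library of the remaining groups, while all anti–IL-4Rα libraries were above all PBS libraries. *Saa3* rose 6.90-fold from PBS to isotype, a log2 fold change of 2.79 (SE 0.46, 95% interval 1.80 to 3.77, adjusted p = 0.00242), and fell from isotype to anti–IL-4Rα, with a log2 fold change of -1.55 (SE 0.44, 95% interval -2.48 to -0.62, adjusted p = 0.0325). It was 2.36-fold above PBS under anti–IL-4Rα, which did not pass (log2 fold change 1.24, SE 0.45, 95% interval 0.28 to 2.19, adjusted p = 0.119), while no libraries overlapped (two-sided exact permutation test, p = 0.00794), as for 6.1% of all genes tested.

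The rise of *Saa3* in the isotype group was called in all 14 alternative settings and all 15 fits without a library, although on the log2(FPKM + 1) scale, which understates the change of low genes, it was 1.32. Its fall under anti–IL-4Rα was called in 8 of the 14 and in 9 of the 15 fits, and was lost without isotype replicate 2, 3 or 5 and without anti–IL-4Rα replicate 2, 4 or 5 (log2 fold change -1.64 to -1.38, adjusted p 0.06 to 0.0778). With the lacrimal covariate the log2 fold change was -1.31 (adjusted p = 0.259), and without the 4 libraries low in *Obp1a* it was -1.43 (adjusted p = 0.104). A linear model on log2(FPKM + 1) gave a fall of -0.86 that did not pass (adjusted p = 0.0543). Of the transcript windows of *Saa3*, 0.461% were found in other genes.

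*Reg3g* was at 34.8, 31.5, 43.3, 21.1 and 16.9 CPM in the PBS group. In the isotype group it was at 36.3, 122.7, 202.6, 49.5 and 70.3 CPM. Anti–IL-4Rα libraries had 19.1, 25.1, 42.5, 26.4 and 14.4 CPM. Replicate 1 was again the isotype library that fell within the PBS range, replicates 2 and 3 were far above the rest, and PBS and anti–IL-4Rα libraries covered nearly the same range. *Reg3g* rose 3.26-fold from PBS to isotype (log2 fold change 1.71, SE 0.44, 95% interval 0.76 to 2.65, adjusted p = 0.0197) and fell from isotype to anti–IL-4Rα (log2 fold change -1.91, SE 0.44, 95% interval -2.87 to -0.96, adjusted p = 0.0175). Against PBS the anti–IL-4Rα group differed by a log2 fold change of -0.21 (95% interval -1.14 to 0.72, adjusted p = 0.826).

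Without isotype replicate 3 the rise of *Reg3g* over PBS was 1.24 on the log2 scale and no longer passed (adjusted p = 0.0566), and without the 4 libraries low in *Obp1a* it was 1.97 (adjusted p = 0.0546). Its fall under anti–IL-4Rα was called in all 15 fits without a library, and without those 4 libraries it was -2.09 (adjusted p = 0.0227). It was called in 12 of the 14 alternative settings and lost with the lacrimal covariate (log2 fold change -1.29, adjusted p = 0.144) and in a fit to the 2 groups compared (-1.92, adjusted p = 0.0556). Over the 15 libraries, *Saa3* and *Reg3g* had a Pearson correlation of log2 CPM of 0.71, and 0.537 after centering within the groups, again as a description.

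Part of a list of neutrophil markers moved with both genes. Of its 10 genes, 8 were tested, of which 5 were called higher in isotype against PBS and 4 lower in anti–IL-4Rα against isotype, while *S100a8* and *S100a9* were called in neither. *Csf3r*, the receptor for G-CSF, rose from 5.22 ± 0.897 to 22.6 ± 10.3 CPM with OVA challenge and was at 7.85 ± 1.06 CPM under anti–IL-4Rα, and isotype replicate 1, at 9.95 CPM, was again the lowest of its group. The summed level of the 10 markers was 42.0 to 67.4 CPM in PBS libraries, 74.2 to 158.7 CPM in isotype libraries and 31.0 to 116.6 CPM in anti–IL-4Rα libraries, so that isotype overlapped with anti–IL-4Rα but not with PBS. The defining marker *Ly6g* was at 0 counts in 4 libraries and never above 5 counts, and the part of neutrophils in the result was not tested.

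**Figure D4:**
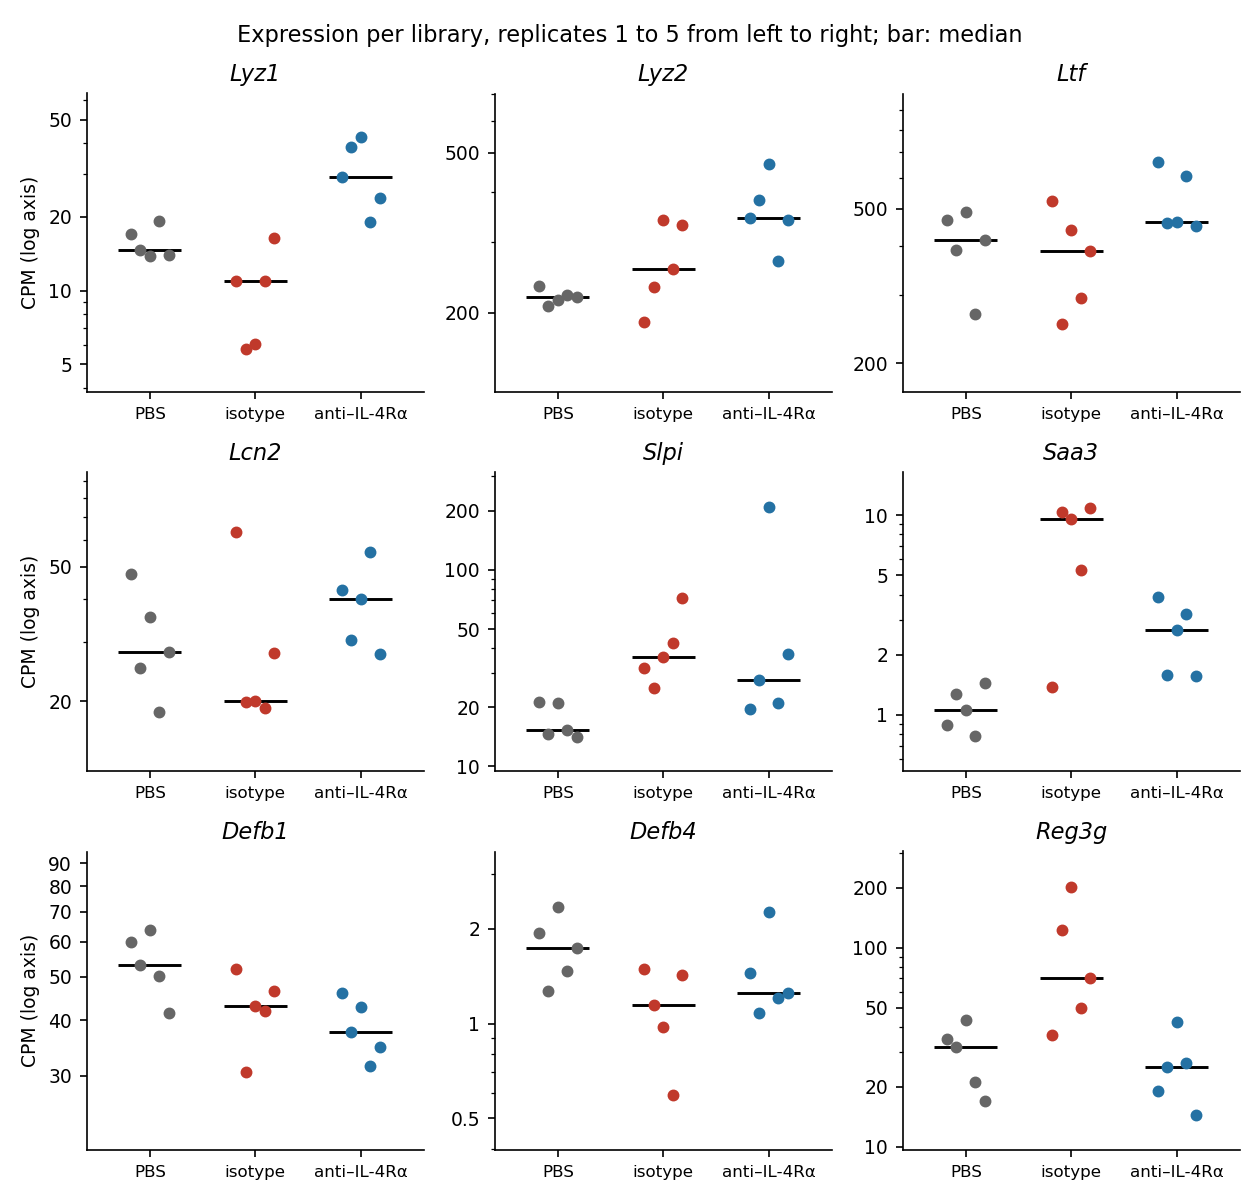
Expression of the 9 genes tested in every library, in CPM on log axes that differ between panels, with replicates 1 to 5 of each group from left to right and a bar for the median. *Lyz1* libraries are higher under anti–IL-4Rα than in the isotype group, *Saa3* and *Reg3g* are high in 4 of 5 isotype libraries, and for *Slpi* replicate 3 of the anti–IL-4Rα group stands apart at 208.4 CPM.

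*Defb1* (ENSMUSG00000044748, chromosome 8, 21776599 to 21795185, plus strand) and *Defb4* (ENSMUSG00000059230, chromosome 8, 19198706 to 19201545, plus strand) encode β-defensins, small cationic peptides that disrupt bacterial membranes, the first made constitutively by epithelia and the second inducible. *Defb1* ranged from 41.4 to 63.8 CPM in the PBS group, from 30.6 to 52.0 CPM in the isotype group and from 31.5 to 46.1 CPM in the anti–IL-4Rα group. *Defb4* ranged from 1.27 to 2.35, from 0.594 to 1.49 and from 1.08 to 2.27 CPM. All groups overlapped, and neither gene was called in any comparison. In isotype against PBS, both had negative log2 fold changes, of -0.33 (SE 0.15, 95% interval -0.64 to -0.02, adjusted p = 0.134) for *Defb1* and -0.64 (SE 0.26, 95% interval -1.20 to -0.08, adjusted p = 0.103) for *Defb4*. Without the 4 libraries low in *Obp1a* they were -0.07 (95% interval -0.36 to 0.22, adjusted p = 0.804) and -0.41 (95% interval -1.02 to 0.20, adjusted p = 0.386).

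In anti–IL-4Rα against isotype, *Defb1* had a log2 fold change of -0.15 (95% interval -0.46 to 0.16) and *Defb4* one of 0.37 (95% interval -0.19 to 0.94). Against PBS, *Defb1* was at -0.48 under anti–IL-4Rα (SE 0.15, 95% interval -0.79 to -0.16, adjusted p = 0.0760), which passed without PBS replicate 5 (-0.56, adjusted p = 0.0442) or without isotype replicate 2 (-0.48, adjusted p = 0.0439). *Defb4* lay at -0.27 (95% interval -0.82 to 0.29) in that comparison. The coding sequence of *Defb4* was 78.6% identical to that of *Defb6* and 76.0% to that of *Defb3*, and none of its transcript windows occurred in another gene.

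*Camp* (ENSMUSG00000038357, chromosome 9, 109847379 to 109849617, minus strand) encodes the cathelicidin CRAMP, a peptide of neutrophil granules and of injured epithelium. It had 0 to 4 counts per library in the PBS group, 1 to 10 in the isotype group and 1 to 4 in the anti–IL-4Rα group. Its levels were at most 0.102 CPM, and differences between the groups were not detectable at this depth.

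Other antimicrobial and acute-phase genes were taken from a list of 51, of which 34 were tested. In isotype against PBS 6 were called higher and 2 lower (23.5%, beside 17.0% of all genes), with a median log2 fold change of 0.36. The highest log2 fold changes were those of *Wfdc12*, of the whey acidic protein family (2.45, SE 0.38, adjusted p = 0.00173), of *Ctsg*, the granule protease cathepsin G that SLPI inhibits (2.28, SE 0.43, adjusted p = 0.00472), and of the serum amyloids *Saa1* (2.14, SE 0.39, adjusted p = 0.00414) and *Saa2* (1.66, SE 0.49, adjusted p = 0.0342). Of these, *Ctsg* was low, with 2 to 51 counts per library. The granule genes *Prtn3* (adjusted p = 0.246) and *Mpo* (adjusted p = 0.823) of the same list were not called, and *Elane* was not tested. *Wfdc21* (-0.83, SE 0.17, adjusted p = 0.0066) and the β-defensin gene *Defb6* (-0.66, SE 0.12, adjusted p = 0.00346) fell. *Saa1* was at 0.785 ± 0.157 CPM in the PBS group, 3.46 ± 2.38 CPM in the isotype group and 2.03 ± 0.796 CPM under anti–IL-4Rα.

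Under anti–IL-4Rα none of the 34 was called higher than in the isotype group and 6 were called lower (17.6%, beside 14.9% of all genes), with a median log2 fold change of -0.26. *Serpina3n*, an acute-phase inhibitor of serine proteases, had 24.3 to 29.4 CPM in PBS libraries, 49.8 to 121.1 CPM in isotype libraries and 25.9 to 43.3 CPM in anti–IL-4Rα libraries. It rose from PBS to isotype (log2 fold change 1.60, SE 0.20, adjusted p = 0.000618) and fell by 1.25 from isotype to anti–IL-4Rα (SE 0.20, adjusted p = 0.00371), with no overlap in either comparison. *Pglyrp3*, which recognizes peptidoglycan (-0.79, adjusted p = 0.00763), *Serpina3g* (-0.78, adjusted p = 0.0343) and the β-defensin gene *Defb14* (-0.78, adjusted p = 0.0398) also fell. For *Saa1* and *Saa2* the log2 fold changes were -0.77 (95% interval -1.56 to 0.03) and -0.97 (95% interval -1.99 to 0.06) and did not pass.

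Against PBS, the anti–IL-4Rα group had 2 calls in this list (5.88%, beside 3.72% of all genes). *Wfdc12* was higher, at 13.1 ± 7.20 CPM against 3.05 ± 1.12 CPM (log2 fold change 2.10, SE 0.37, adjusted p = 0.0153), and did not differ detectably from the isotype group (-0.35, 95% interval -1.10 to 0.40). *Defb6* was lower, at 137.5 ± 13.1 CPM against 197.7 ± 25.9 CPM (log2 fold change -0.52, SE 0.12, adjusted p = 0.0322). The summed level of the 51 genes was 1444 to 2372 CPM (median 1627) in PBS libraries and 1486 to 2321 CPM (median 1852) in isotype libraries. In anti–IL-4Rα libraries it was 1614 to 4703 CPM (median 3758), and these ranges overlapped. Some abundant genes had higher means under anti–IL-4Rα than in the isotype group without being called. *Lpo* was at 1333 ± 946 against 202.5 ± 213.1 CPM (adjusted p = 0.243) and *Hp* at 608.2 ± 398.8 against 138.1 ± 70.5 CPM (adjusted p = 0.0701). The median log2 fold change of the genes tested was nevertheless -0.26 in that comparison. Without the 4 libraries low in *Obp1a* the list had 7, 7 and 2 calls in the 3 comparisons.

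Cytokines, receptors and transcription factors that act upstream of these genes were taken from a list of 24, of which 22 were tested (*Il17f* and *Il22* were not). In isotype against PBS 9 were called higher and 1 lower (45.5%, beside 17.0% of all genes), with a median log2 fold change of 0.26. *Il6*, which signals through STAT3 to acute-phase genes, rose from 0.0796 ± 0.0422 CPM with PBS to 1.38 ± 0.860 CPM in isotype libraries (log2 fold change 4.04, SE 0.57, adjusted p = 0.00108). The related cytokine *Osm* rose by 2.90 (SE 0.42, adjusted p = 0.00126), the epithelial cytokine *Il17c* by 2.78 (SE 0.70, adjusted p = 0.0178) and *Il1b* by 2.02 (SE 0.39, adjusted p = 0.00547) on the log2 scale. *Il17re*, a receptor chain for IL-17C, fell by 0.23 on that scale (SE 0.06, adjusted p = 0.025). Unlike *Il17c*, *Il17a* had a lower mean in isotype libraries, at 0.0238 ± 0.0445 CPM against 0.241 ± 0.219 CPM with PBS. Its log2 fold change of -2.89 did not pass (SE 0.99, adjusted p = 0.0598). *Il17a* was low, with 0 to 42 counts per library.

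From isotype to anti–IL-4Rα 8 of the 22 were called lower and none higher (36.4%, beside 14.9% of all genes), with a median log2 fold change of -0.28. The log2 fold change was -2.29 for *Il6* (SE 0.50, adjusted p = 0.0141), -1.82 for *Osm* (SE 0.40, adjusted p = 0.0138), -1.81 for *Il1b* (SE 0.39, adjusted p = 0.013) and -0.82 for the epidermal cytokine *Il36b* (SE 0.17, adjusted p = 0.0124). *Il17c* lay at -0.70 (95% interval -2.07 to 0.67) and *Il17a* at 1.31 (95% interval -1.18 to 3.8), and neither was called. No gene of this list was called between anti–IL-4Rα and PBS.

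**Figure D5:**
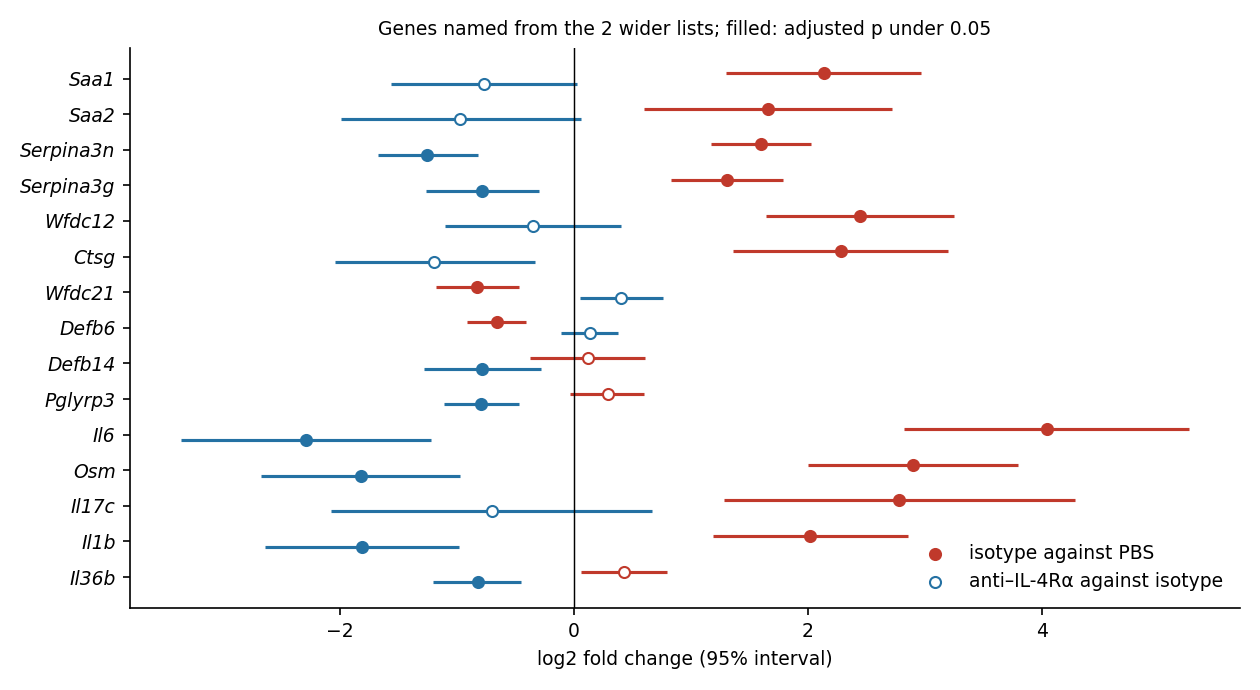
Log2 fold changes with 95% intervals of genes named from the lists of other antimicrobial and acute-phase genes and of upstream genes, in isotype against PBS and in anti–IL-4Rα against isotype, filled where the adjusted p was under 0.05. *Il6*, *Osm*, *Il1b* and *Serpina3n* are filled on the right for the first comparison and on the left for the second, and *Wfdc12* is filled for the first alone.

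The genes whose log2 CPM followed each member most closely over the 15 libraries are given as a description, since libraries share groups and tissue composition. *Lyz1* was followed by *Mucl1* (Pearson r = 0.922), *Trim44* and *Chst12*, and *Lyz2* by *Clec12a* (0.969), *Cybb* and *Pou2f2*. *Saa3* was nearest to *Ctsc* (0.948), *Ggt5* and *Ctsz*, and *Reg3g* to *Cgref1* (0.943), *Smim3* and *Slc20a1*. For *Slpi* the nearest were *Iglv1* (0.918), *Ptprcap* and *Ltb*, and for *Defb1* *Mst1* (0.951), *Meis2* and *Pmm1*. *Ltf* and *Lcn2* had *Olfm4* in common among their nearest genes, with r = 0.878 and 0.870, and *Ltf* was nearest to *Plet1* (0.892). *Defb4* followed *Tcrg-V6* (0.862), *Krt2* and *Blk*. After centering within the groups, *Lyz1* and *Mucl1* had r = 0.928 and *Lyz2* and *Clec12a* r = 0.942, whereas *Lyz1* and *Trim44* had r = 0.690.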

How the data were processed

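Conjunctival RNA of 15 samples (3 groups of 5, from the sample labels) was polyA-selected, read in pairs and, per the authors' methods, mapped uniquely to the B38 mouse genome in Omicsoft Array Studio. How pairs were counted and whether strand was used is not given in the sources used here. The authors deposited an estimated count per Ensembl gene and library, not scaled for depth. All values were rounded before testing, since 6222 to 8005 genes of each library were not whole. The labels do not say that replicates were separate animals, so p-values measure the spread between these samples. The methods mention outliers without naming them, and RNA-Seq figures of the paper state group sizes below 5 for some groups. All 15 libraries were kept here, so the samples used may differ from those of the authors.

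Genes with at least 10 counts in 5 libraries were normalized with TMM and fitted in edgeR 4.0.16 (quasi-likelihood, 1 model of 3 groups, two-sided, R 4.3.3), with Benjamini-Hochberg adjustment over 19006 genes per comparison and a threshold of 0.05. Log2 CPM used a prior count of 2. Gene names, positions and coding sequences came from GENCODE M21 of GRCm38 (55141 identifiers matched), upstream sequences from RefSeq. *Il36b* is listed there under an older symbol. Exact permutation tests covered every split of 10 libraries. From each wider list, up to 4 called genes per direction and comparison with the largest log2 fold change were named. Also named were *Slc22a17*, *Lrp1*, *Il17a* (beside *Il17c*) and the 3 genes most like each member. The genes described and all lists were chosen with earlier results of these data known.

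Alternatives were upper quartile factors, DESeq2 1.42.0, limma 3.58.1 (voom with quality weights, and linear models on log2 FPKM or CPM with a pseudocount of 1), robust estimation, other filters and thresholds, a fit to the groups compared, a lacrimal acinar score as a covariate, a block by replicate number, library sizes without the members, and leaving out each library. Library sizes without the tear protein genes, and leaving out the 4 libraries under 1000 CPM of *Obp1a*, were added after seeing the data, the latter also for the lysozyme ratio. The steps were tested on simulated data. Tables and plots used Python 3.11.15, pandas 2.3.3, scipy 1.17.1 and matplotlib 3.10.9.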

Additional observations from a re-analysis of the deposited data

Results flagged for a closer look

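Of 30 sets of 5 libraries examined for a library far from the others (each gene tested and the lysozyme ratio, in each group), 1 was flagged, where chance flags about 1 in 20. In the anti–IL-4Rα group *Slpi* was at 208.4 CPM in replicate 3, and the gap to the next library made up 0.73 of the group's whole range, above the critical ratio of 0.71. The next highest library of that group was at 37.3 CPM. Replicate 3 also had the highest *Lyz1* (42.6 CPM) and *Lyz2* (469.1 CPM) of all 15 libraries.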

How the results depend on the processing

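In isotype against PBS there were 2 calls, and 2 to 3 under the alternatives (without the 4 libraries low in *Obp1a*, *Slpi* was called and *Reg3g* was not), and 1 to 3 without single libraries (1 without isotype replicate 3). The 3 calls in anti–IL-4Rα against isotype became 1 in a fit to the groups compared and 1 with the lacrimal covariate, and ran from 2 to 5 without single libraries (5 without isotype replicate 1). DESeq2 also called *Lyz2* there (adjusted p = 0.0482). Linear models on log2 FPKM or CPM did not call *Saa3* (adjusted p = 0.0543 and 0.0628). The 1 call in anti–IL-4Rα against PBS became 4 with DESeq2, 2 with voom, 2 in a fit to the groups compared, and 0 with the lacrimal covariate or without the 4 libraries low in *Obp1a*. It ran from 0 to 3 without single libraries. The wider antimicrobial list had 8 calls in isotype against PBS (7 to 11 without single libraries). Its 6 calls in anti–IL-4Rα against isotype became 10 with DESeq2 or voom, 3 with no filter and 2 in a fit to the groups compared, with the lacrimal covariate or with the replicate block, and 2 to 9 without single libraries. The 2 calls against PBS became 6 with DESeq2 or voom, 0 with the lacrimal covariate, 1 with a minimum fold of 1.5, and 1 to 7 without single libraries (7 without anti–IL-4Rα replicate 3). The cause of these shifts was not tested. DESeq2 gave no adjusted p for *Slpi*. The differences in the lysozyme ratio ran from -1.20 to -0.78, from 0.99 to 1.41 and from 0.14 to 0.28 without single libraries, and isotype against PBS was -0.94 without the 4 libraries (exact permutation test, p = 0.0571).

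The main fit did not treat replicate numbers as pairs. Correlations of same-numbered libraries ran from -0.385 to 0.454. They were not compared with those of differently numbered libraries, so they cannot settle whether the numbers pair samples. With the replicate block the members called were 2, 2 and 1, the fall of *Saa3* under anti–IL-4Rα being lost (adjusted p = 0.108). Signs reversed for values that were never called. *Ltf* in isotype against PBS became 0.04 with voom, 0.21 without the 4 libraries, and ran from -0.24 to 0.02 (without isotype replicate 2) when single libraries were left out. *Lcn2* there became 0.45 without the 4 libraries and ran from -0.51 to 0.16 without single libraries, being above 0 without PBS replicate 1 or 3 or isotype replicate 2, 3 or 4. *Slpi* in anti–IL-4Rα against isotype became -0.46 with voom, -0.80 without the 4 libraries and ran from -0.65 (without anti–IL-4Rα replicate 3) to 0.89 without single libraries. With the lacrimal covariate, *Defb4* and *Reg3g* in anti–IL-4Rα against PBS became 0.06 and 0.58. Depth limited *Camp*, and 5 libraries per group limited the precision of the other genes.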
